A study of Mus musculus with 7 samples.

Results

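Interferon ligands, their receptors and the factors that carry their signal were followed as 9 genes of the 32285 listed, chosen by symbol: the ligands Ifng and Ifnb1, the receptor subunits Ifngr1, Ifngr2, Ifnar1 and Ifnar2, and the transducers Stat2, Irf1 and Irf9. Droplet sequencing of single cells (10x Genomics 3′ kit) measured them in whole brain tumours grown in wild-type C57BL/6 mice, 7 to 10 weeks old, from NSCG-mCherry, a mouse glioma line with the EGFRvIII form of the EGF receptor and without Arf/Ink4a. There were 7 libraries, each from 2 or more mice pooled at about day 14. IgG mice (2 libraries, IgG 1 and IgG 2) received an IgG2b isotype control at 10 mg/kg. BP mice (2 libraries, BP 1 and BP 2) received anti-PD-L1 at 10 mg/kg and B20, which binds VEGF, at 5 mg/kg. BPI mice (1 library) received the same antibodies with 10 mg/kg IPI-145, which blocks the delta and gamma forms of PI3K, by daily gavage. Treatment of IgG, BP and BPI mice ran over 3 rounds. CD40 mice (1 library) received 2 doses of 100 µg of an agonist antibody, and the labels do not say whether a dendritic cell vaccine was added. UT mice (1 library) were untreated. The labels mention a gavage diluent for IgG controls of BPI and do not say which IgG library had it. A library counts as 1 replicate, and nothing says that the mice of the IgG and BP pairs were treated apart in time.

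Interferon gamma is secreted by activated T cells and natural killer (NK) cells and binds a receptor of IFNGR1, the ligand-binding chain, and IFNGR2, the chain that brings in JAK2. Active receptors lead to binding at GAS elements, among them that of Irf1, which encodes a factor that in turn switches on chemokine and antigen-presentation genes. Type I interferons such as interferon beta bind IFNAR1 and IFNAR2, and the signal passes through a complex with STAT2 and IRF9 that binds interferon-stimulated response elements (ISRE). In gliomas, T cells are scarce beside tumour cells, resident microglia and recruited macrophages, and interferons are a way in which lymphocytes act on these cells.

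In GRCm38, Ifng lies on chromosome 10 (118441046 to 118445892), Ifnb1 on chromosome 4 (88522025 to 88522774), Ifngr1 on chromosome 10 (19591949 to 19610229), Stat2 on chromosome 10 (128270559 to 128292849), Irf1 on chromosome 11 (53770014 to 53778374) and Irf9 on chromosome 14 (55603571 to 55610030). Ifnar2 (91372783 to 91405589), Ifnar1 (91485238 to 91507441) and Ifngr2 (91547072 to 91565623) lie near one another on chromosome 16. All 9 gene identifiers of the count tables were found in the annotation. Irf9 overlaps Rnf31 by 123 bases on the same strand, so reads there cannot be assigned with certainty, and the other 8 overlap no second gene of the count tables.

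The 250 bases before the start of Irf1, Stat2 and Ifnb1 are shown because Irf1 is a textbook target of interferon gamma, Stat2 a member of the type I complex that is itself a target, and Ifnb1 the ligand that only a few cells held. Sequences are from RefSeq promoters on GRCm38.p6, and capitals mark the motifs found.
Irf1, chr11:53769764-53770013, plus strand: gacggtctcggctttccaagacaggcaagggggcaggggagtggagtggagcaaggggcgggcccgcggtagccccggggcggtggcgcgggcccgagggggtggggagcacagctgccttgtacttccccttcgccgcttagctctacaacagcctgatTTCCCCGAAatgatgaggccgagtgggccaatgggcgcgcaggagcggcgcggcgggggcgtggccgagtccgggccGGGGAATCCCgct
Stat2, chr10:128270248-128270497, plus strand: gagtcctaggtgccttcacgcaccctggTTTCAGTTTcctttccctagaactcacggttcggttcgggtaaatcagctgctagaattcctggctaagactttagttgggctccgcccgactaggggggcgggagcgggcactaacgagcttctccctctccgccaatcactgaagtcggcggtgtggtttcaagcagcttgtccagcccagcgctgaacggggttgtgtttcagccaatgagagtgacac
Ifnb1, chr4:88522795-88523044, minus strand: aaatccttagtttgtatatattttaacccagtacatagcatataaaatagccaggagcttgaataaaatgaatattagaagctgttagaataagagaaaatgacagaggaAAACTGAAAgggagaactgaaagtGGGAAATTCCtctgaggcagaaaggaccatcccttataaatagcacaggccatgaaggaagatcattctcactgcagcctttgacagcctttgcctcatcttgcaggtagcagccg
The search covered both strands for a GAS element (TTCNNNGAA), an ISRE core (TTTCNNTTT) and the kappa B consensus. The first run of capitals in Irf1 is a GAS match (TTCCCCGAA) 90 bases before its start, and the second a kappa B match 13 bases before it. Stat2 holds an ISRE core (TTTCAGTTT) at 222 bases, and Ifnb1 an ISRE core (AAACTGAAA on the strand shown) at 140 bases and a kappa B match at 116 bases. Among 32851 promoters of the same length, 7.02% hold the GAS letters, 9.37% the ISRE core and 7.25% the kappa B consensus, so each is common. Of the other members, Ifng (TTCAGAGAA, 249 bases before the start) and Ifnar2 (TTCCTGGAA, 214 bases) hold a GAS match and Ifngr2 a kappa B match (75 bases). The windows of Ifngr1, Ifnar1, a second listed start of Irf1 and both listed starts of Irf9 held none, and no motifs overlapped. A match describes letters and does not show that a factor binds there.

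Values are UMI counts (unique molecular identifiers, 1 per captured transcript) summed over the cells of a class in a library and divided by that class's total, as CPM, a scale on which all genes of a class add up to the same sum. Series of 7 values follow the order IgG 1, IgG 2, BP 1, BP 2, BPI, CD40 and UT, and a library with under 20 cells of a class is left out and named. Of 51795 cells, 3207 were removed as likely doublets and 48588 were kept, 5373 to 9650 per library, at 68997476 to 186793886 UMIs in all droplets of a library. Clusters were named from marker genes, with the 9 genes and their pathway lists kept out of the clustering. Cells in clusters without a name made up 4.19% (IgG 2) to 29.0% (UT). Tumour-like cells numbered 2582 to 6093 per library, monocyte/macrophage-like cells 66 to 1770, microglia-like cells 51 to 854 and T-like cells 37 to 1303, and all 12 tumour, 10 monocyte/macrophage, 7 microglia and 7 T cell markers had UMIs in that class in every library. Their levels differed: tumour markers summed to 442, 408 and 348 CPM in the tumour-like cells of IgG 1, BP 2 and BPI and to 1002 or more in the other 4 libraries. Most tumour-like cells of IgG 1, BP 2 and BPI lay in 2 clusters that raised 3 of the 12 markers, apart from those of IgG 2, and the part of this split in the results was not tested. The libraries do not mix evenly: most monocyte/macrophage-like and microglia-like cells of BP 1 fell in clusters with few cells of other libraries, UT uses another barcode list, and library numbers run on in IgG 1, BP 2 and BPI (set A) and in CD40 and IgG 2 (set B). The microglia-like cluster of BP 1 raised all 7 microglia markers and had none of them among its top 10 genes; microglia markers summed to 4685 CPM in BP 1 against 8308 to 12380 elsewhere, and monocyte/macrophage markers to 1518 against 109 to 973. Pairs of libraries shared 0 to 26 cell barcodes. Levels between genes are not compared, since 3′ counts depend on each gene's end.

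Ifng was held mostly by lymphocytes, and which lymphocytes held it differed by library. The libraries had 25, 41, 3785, 348, 3089, 63 and 675 Ifng UMIs in cells. CD8 T-like cells, the cytotoxic T cells, held 12.0%, 9.76%, 49.9%, 71.6%, 91.7%, 23.8% and 10.5% of them. NK-like cells held 72.0%, 24.4%, 4.86%, 11.8%, 4.95%, 42.9% and 8.89%. The CD8 share was thus above that of NK-like cells in BP 1, BP 2, BPI and UT and below it in both IgG libraries and CD40. Conventional CD4 T-like cells, the helper cells, held 34.4% in BP 1, the one library with 20 or more of them (276 cells). In UT, 71.4% lay in mixed T-like clusters, in which CD4 and CD8 markers could not be separated. Cells that were neither T-like nor NK-like held 1.15% (BP 2) to 19.5% (IgG 2), the latter being part of 41 UMIs. These shares move with the number of cells: CD8 T-like cells numbered 6, 3, 431, 117, 372, 24 and 26, and NK-like cells 45, 14, 414, 99, 340, 65 and 116. When T cells were classed by their own Cd8a, Cd8b1, Cd4 and Foxp3 UMIs, the CD8 share was 4.0%, 22.0%, 51.1%, 66.4%, 90.1%, 20.6% and 32.0%. Conventional CD4 T cells then held 41.6% in UT, above the CD8 cells, 35.6% in BP 1, 10.3% in BP 2 and 0.453% in BPI.

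**Figure D1:**
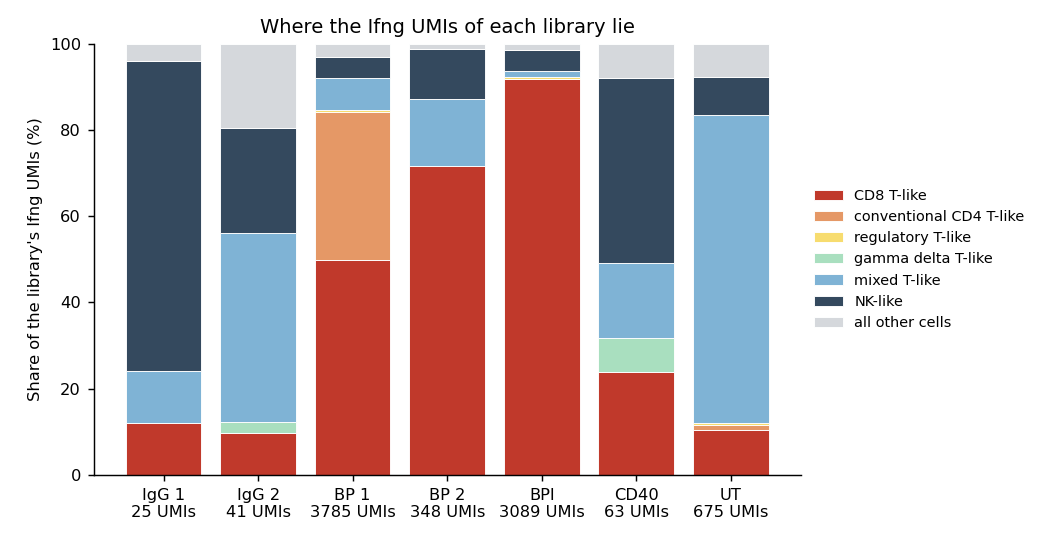
Share of each library's Ifng UMIs (%, vertical axis) by cell class, as stacked bars for the 7 libraries with the number of Ifng UMIs in cells under each. CD8 T-like cells hold 91.7% in BPI and 71.6% in BP 2, NK-like cells 72.0% in IgG 1, and mixed T-like cells 71.4% in UT.

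Per transcript, CD8 T-like cells held Ifng at 492 (BP 1), 537 (BP 2), 2096 (BPI), 59.5 (CD40) and 145 CPM (UT), with under 20 cells in both IgG libraries. NK-like cells held 163 (IgG 1), 95.7 (BP 1), 180 (BP 2), 227 (BPI), 84.8 (CD40) and 139 CPM (UT), with 14 cells in IgG 2. NK-like levels thus stayed within 84.8 to 227 CPM, while CD8 T-like levels ranged from 59.5 to 2096. Different clusters held most CD8 T-like cells: 1 cluster had 297 of 372 in BPI and 101 of 117 in BP 2, another 295 of 431 in BP 1 (172 CPM) and yet another 23 of 26 in UT. In the main cluster of BPI, also that of BP 2, the level was 2825 CPM in BPI, 650 in BP 2 and 3939 in the 6 cells of BP 1. BPI and BP 2 thus differed within 1 cluster, while for most cells of BP 1 and UT cluster and library cannot be told apart. CD8 T-like cells were above NK-like cells in 4 of the 5 libraries with both, by 1.31 ± 1.5 on the log2(CPM + 10) scale (SD, n = 5; two-sided exact sign-flip permutation p 0.188, adjusted over 3 comparisons 0.50), and below them in CD40. Regulatory T-like cells, which restrain other T cells, had 9.67 CPM in BP 1 and 13.3 in UT, the lowest of the T cell classes with 20 or more cells there. Both lay under the 33.6 and 32.1 CPM of droplets with 1 to 100 UMIs in these libraries. The 16 of BPI, too few for that rule, had 157 CPM. Gamma delta T-like cells numbered under 20 in every library and are left out. Compared with regulatory T-like cells, CD8 T-like cells were higher by 3.70 and NK-like cells by 2.55 (log2, n = 2, exact permutation p 0.50 for both, the smallest that 2 libraries allow). Regulatory T cells classed by their own UMIs had 49.2 CPM in BP 1 and 78.9 in UT, with differences of 2.64 (CD8) and 0.79 (NK-like). In BP 1 conventional CD4 T-like cells had 435 CPM, next to 492 in CD8 T-like cells, with no replicate. By the T cells' own UMIs, CD4 cells without Foxp3 had 511 (BP 1), 477 (BP 2), 189 (BPI) and 328 CPM (UT), and CD8 cells of UT had 449.

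**Figure D2:**
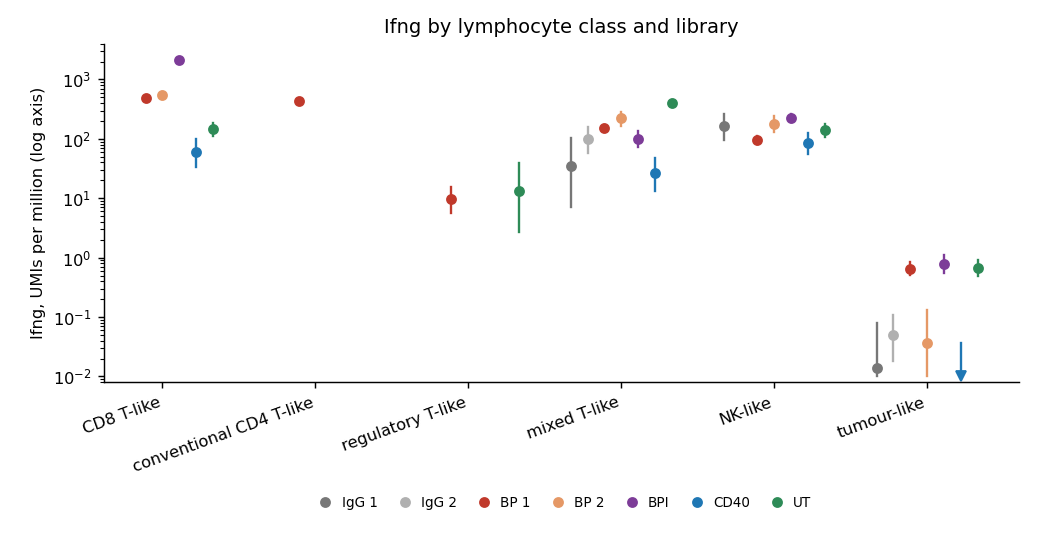
Ifng level (CPM, log axis) in each lymphocyte class and in tumour-like cells, 1 point per library with at least 20 cells; bars are exact 95% Poisson intervals, which cover counting error only, and a triangle marks 0 UMIs. CD8 T-like cells spread from 59.5 (CD40) to 2096 (BPI), NK-like cells lie between 84.8 and 227, and tumour-like cells lie at or below 0.788.

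A few cells carried much of the signal. The T-like cell with the most Ifng UMIs had 860 in BPI, which was 29.7% of the T-like total, and 575 in BP 1, which was 16.5%. The top 10 T-like cells held 73.6% of the T-like Ifng UMIs in BPI, 63.9% in BP 1, 49.4% in UT and 47.9% in BP 2. Without its top cell, the T-like level of BPI was 1093 in place of 1548 CPM and that of BP 1 278 in place of 332. The top 10 NK-like cells held 28.3% of the NK-like UMIs in BP 1, 58.5% in BP 2, 54.2% in BPI and 46.7% in UT, from fewer cells. At a matched fraction, the top 10% of cells, rounded up to whole cells, held 83.3% (IgG 1), 90.5% (BP 1), 68.3% (BP 2), 91.6% (BPI), 71.0% (CD40) and 74.1% (UT) of the T-like Ifng UMIs and 61.1%, 65.8%, 58.5%, 79.7%, 55.6% and 53.3% of the NK-like ones. The T-like share was above in these 6 libraries, of which IgG 1 and CD40 have few UMIs, and IgG 2 has 14 NK-like cells. T-like cells join classes of different Ifng level. In CD8 T-like cells alone the share was 87.1% (BP 1), 59.4% (BP 2), 88.7% (BPI), 53.3% (CD40) and 45.1% (UT). That was below the NK-like share in CD40 and UT and close to it in BP 2. The share of cells with a UMI at matched depth (each cell thinned to 1000 UMIs) was 10.2% (BP 1), 29.1% (BP 2), 28.2% (BPI), 4.17% (CD40) and 19.2% (UT) of CD8 T-like cells, against 42.9%, 49.6%, 48.7%, 41.7% and 73.1% unthinned. Of thinned tumour-like cells, 0.142% had a UMI in BPI and fewer in the other 6 libraries. Their median depth in BPI was 10580.5 UMIs, against 3004.5 in CD8 T-like cells. They are thus not a matched background for lymphocytes, and the part of free RNA in the CD8 T-like shares was not tested. BPI and BP 2 thus stood at 28.2% and 29.1% of CD8 T-like cells with Ifng, while their levels were 2096 and 537 CPM.

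In T-like cells as a whole Ifng was at 49.6, 102, 332, 407, 1548, 41.3 and 279 CPM. Both BP libraries, BPI and UT lay above both IgG libraries, and CD40 lay below them. Monocyte/macrophage markers summed to 1802, 1456, 1718, 2747, 3198, 1352 and 2227 CPM in these cells, highest in BPI, and their part in the differences was not tested. The fitted difference from IgG was 4.32 ± 0.56 (log2, SE) in BPI, an adjusted p of 7.41e-06 (edgeR quasi-likelihood test, Benjamini-Hochberg adjustment over all 8980 genes of the fit), among 0.223% of all genes called. With UT counted as a control beside IgG it was 3.43 at adjusted p 0.11. BP against IgG gave 2.04 ± 0.50, with an adjusted p of 0.05001 just above the threshold of 0.05, where 0.356% of genes were called. BP was called without BP 1 (2.31, adjusted p 0.000716) and without BP 2 (1.67, 0.00986), and not without IgG 1 (1.65, 0.474) or IgG 2 (2.83, 0.488), nor with UT as a control (1.16, 1.0). UT differed from IgG by 1.72 ± 0.55 (adjusted p 0.0906; 2.17% of genes called) and CD40 by -1.06 ± 0.64 (adjusted p 1.0; 0% called). The make-up of the class moved with these values, since CD8 T-like cells were 372 of 594 T-like cells in BPI and 6 of 37 and 3 of 59 in IgG. Within the mixed T-like cells alone Ifng was at 35, 99, 153, 220, 101, 26.5 and 407 CPM, where BPI lay next to IgG 2. A test among CD8 T-like cells was not made because IgG had 9 of them.

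Ifnb1 was rare, and its UMIs lay in few cells of a few libraries: 4, 1, 78, 4, 23, 8 and 224 UMIs in all cells. Of the 224 in UT, 218 lay in 22 tumour-like cells, of which 1 cell had 74. Of the 78 in BP 1, 74 lay in 6 tumour-like cells and 59 of these in 1 cell. Droplets of 1 to 100 UMIs held 9.28 CPM of Ifnb1 in UT, and the part of free RNA in the levels of cells was not tested. Tumour-like cells held 0, 0, 0.712, 0, 0.0852, 0 and 3.80 CPM. The UT level was at least 89.6-fold higher than IgG, taking 3 counts per library as the floor for the IgG libraries, and 2.51 CPM without its top cell. The fit of UT against IgG, with the top cell kept, gave an edgeR quasi-likelihood test p of 0.0284 (adjusted p 0.374). In BPI, 13 of 23 UMIs lay in 6 microglia-like cells (20.2 CPM) and 6 in 6 monocyte/macrophage-like cells. Plasmacytoid dendritic-like cells, known as strong makers of type I interferon, had no Ifnb1 UMI in the 203 cells of BP 1, the 35 of BPI or the 36 of UT. The other 19 listed ligands of types I and III hardly appeared: all but Ifnz (9) and Ifnk (389) had 0 to 4 UMIs over all libraries. Ifnk was at 0.138 (BP 1) to 0.814 CPM (IgG 2) over all cells.

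Among receptors, Ifngr1 was highest in NK-like and T-like cells and low in tumour-like cells. Tumour-like cells had 25.7, 26.4, 28.5, 24.9, 26.8, 28.3 and 32.7 CPM, a narrow range across all groups and below the 29.7, 38.7, 85.1, 30.3, 65.9, 49.6 and 59.7 CPM of droplets with 1 to 100 UMIs, which mostly hold free RNA. Monocyte/macrophage-like cells had 121, 153, 166, 99.1, 88.3, 197 and 74.1, and microglia-like cells 246, 300, 154, 425, 272, 272 and 229. T-like cells had 661, 370, 436, 487, 541, 496 and 386, and NK-like cells 515 (IgG 1) to 1342 (BPI). Within each library the difference from tumour-like cells was 1.82 ± 0.51 in monocyte/macrophage-like, 2.85 ± 0.48 in microglia-like and 3.69 ± 0.34 in T-like cells (log2(CPM + 10), SD, n = 7), higher in 7 of 7 libraries each. The two-sided exact sign-flip permutation p was 0.0156 for each, the smallest that 7 libraries allow, and 0.0312 after adjustment over 36 comparisons. Endothelial-like cells had 69.4 (IgG 2), 75.2 (BP 1), 81.3 (BPI), 67.5 (CD40) and 44.8 (UT), above tumour-like cells in all 5 libraries with 20 or more by 0.99 ± 0.37 (exact permutation p 0.0625, the smallest for 5). NK-like and T-like ranges overlap at 515 to 661, and T-like and microglia-like ranges at 370 to 425.

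Ifngr2 had the reverse order among lymphocytes. T-like cells had 8.26, 22.3, 10.9, 5.38, 9.10, 9.34 and 12.9 CPM and NK-like cells 0 to 9.24, all under the droplets of few UMIs of the same library. How much of such low levels is free RNA was not tested. Tumour-like cells had 36.0, 39.5, 45.0, 34.6, 31.3, 37.7 and 85.1, with UT above the other 6. Monocyte/macrophage-like cells had 148, 127, 174, 140, 145, 134 and 180, and microglia-like cells 123, 154, 197, 139, 140, 161 and 191, ranges that overlap throughout. Against tumour-like cells the differences were 1.61 ± 0.30, 1.67 ± 0.29 and, for T-like cells, -1.34 ± 0.43 (SD, n = 7; all libraries in that direction, exact permutation p 0.0156, adjusted 0.0312 each). B-like cells had 122 (BP 1), 76.3 (CD40) and 103 (UT). The droplets held 24.3, 33.8, 50.5, 28.6, 28.3, 39.6 and 78.5 CPM of Ifngr2, above tumour-like cells in BP 1 and CD40 and below them in the other 5. Myeloid cells thus held both chains of the interferon gamma receptor above the droplets' level, T-like and NK-like cells held Ifngr1 with little Ifngr2, and tumour-like cells lay below that level for Ifngr1 in every library and on either side of it for Ifngr2.

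Ifnar1 and Ifnar2, the chains of the type I receptor, were both highest in plasmacytoid dendritic-like cells. These had 181 (BP 1), 216 (BPI) and 181 CPM (UT) of Ifnar1 and 599, 527 and 819 of Ifnar2. For Ifnar1, monocyte/macrophage-like cells had 84.3, 57.1, 83.8, 72.9, 74.1, 57.4 and 45.0 against 19.3, 29.6, 37.6, 17.4, 15.2, 32.8 and 31.7 in tumour-like cells. That difference was 1.12 ± 0.55, and T-like cells differed by 0.67 ± 0.64 (SD, n = 7; higher in 7 of 7, exact permutation p 0.0156, adjusted 0.0312 both). With doublets kept the T-like call was lost. Microglia-like cells, at 28.7 (UT) to 56.5 CPM (BP 1), were higher in 6 of 7 libraries and missed the threshold (0.42 ± 0.40, exact permutation p 0.0312, adjusted 0.0562). Droplets of few UMIs held 15.9, 24.7, 39.7, 16.2, 15.3, 26.0 and 22.8 CPM of Ifnar1, above tumour-like cells in BP 1 and BPI. They held 42.7, 73.8, 97.2, 53.3, 58.1, 76.3 and 121 of Ifnar2, above tumour-like cells in every library but UT. For Ifnar2, tumour-like cells had 41.0, 63.1, 92.9, 43.1, 47.9, 61.4 and 147, monocyte/macrophage-like cells 177 (IgG 2) to 241 (BP 1) and microglia-like cells 156 (IgG 1) to 222 (BP 2). The differences were 1.57 ± 0.53 and 1.46 ± 0.55, in 7 of 7 libraries (exact permutation p 0.0156, adjusted 0.0312), while T-like cells differed by -0.06 ± 0.60 (adjusted p 0.877). Endothelial-like cells had 60.9 to 124 of Ifnar1 and 178 to 301 of Ifnar2, above tumour-like cells in 5 of 5 by 1.32 ± 0.44 and 1.44 ± 0.60 (exact permutation p 0.0625 each).

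**Figure D3:**
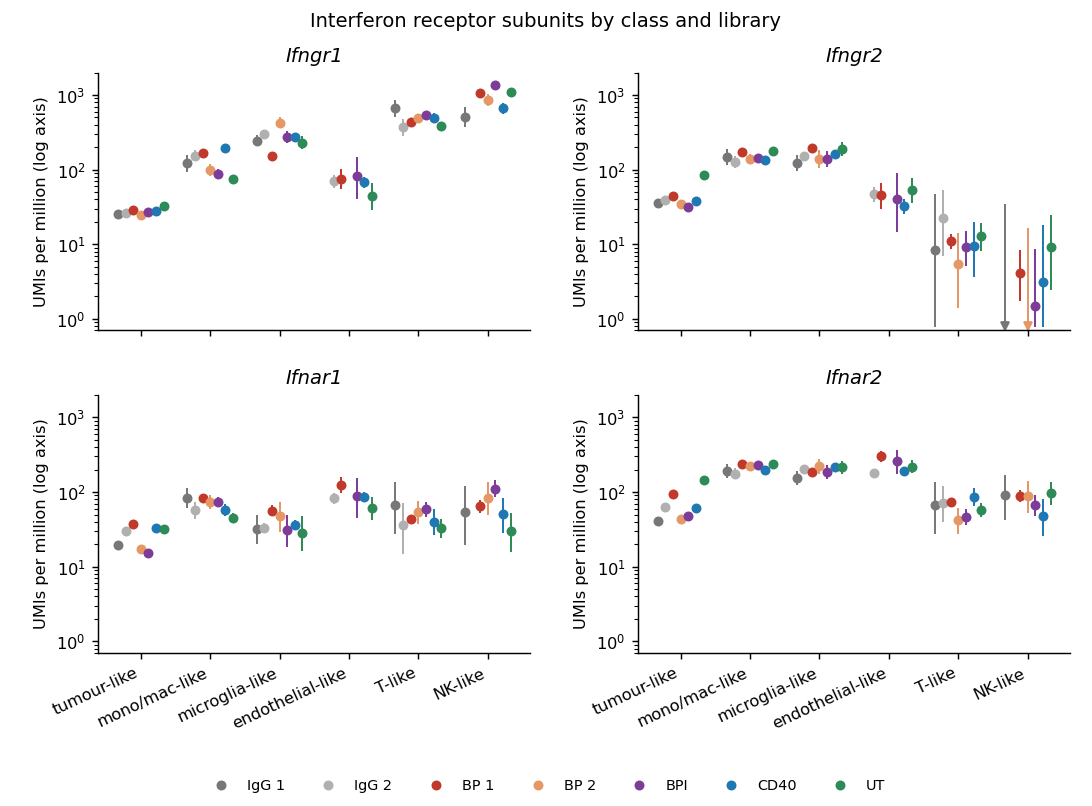
Levels of the 4 receptor subunits (CPM, log axis) in 6 classes, 1 point per library with at least 20 cells; bars are exact 95% Poisson intervals and triangles mark 0 UMIs. Ifngr1 is highest in NK-like and T-like cells and Ifngr2 lowest there, and for both chains tumour-like cells lie below monocyte/macrophage-like and microglia-like cells in all 7 libraries.

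Irf1 differed between libraries in tumour-like, monocyte/macrophage-like, microglia-like and T-like cells, and the same 3 libraries were low in each. Tumour-like cells had 21.1, 20.5, 158, 34.1, 51.9, 20.2 and 181 CPM. Monocyte/macrophage-like cells had 43.8, 29.6, 363, 147, 263, 40.6 and 428, and microglia-like cells 68.5, 70.7, 219, 226, 239, 74.8 and 265, where the part of the lower microglia and higher monocyte/macrophage markers of BP 1 was not tested. IgG 1, IgG 2 and CD40 lay below BP 1, BP 2, BPI and UT in all 3 classes, with no overlap. The UT microglia-like value joins 2 clusters. It was 113 CPM in the 31 cells of the larger microglia-like cluster, where BP 2 had 227 and BPI 239. In the 20 cells that lay in the main microglia-like cluster of BP 1 it was 464. Endothelial-like cells had 65.2 (IgG 2), 220 (BP 1), 115 (BPI), 63.6 (CD40) and 251 (UT), and too few cells in IgG 1 and BP 2 for a fit. They lay in different clusters: 1 cluster, led by Ubd and Ccl21a, held 25 of 39 in BP 1, 9 of 21 in BPI, 16 of 60 in UT and none in IgG 2, with 1 in CD40. The other 2 clusters with 20 or more cells of UT had 23 and 21 of them. Irf1 was at 98.6 CPM in UT against 53.2 (IgG 2) and 37.1 (CD40) in the first, and at 57.4 against 155 and 119 in the second. The UT cells of the first had a median of 2434 UMIs. With so few cells, whether the order of the libraries differs between clusters cannot be told. T-like cells had 74.4, 98, 150, 156, 172, 111 and 247 CPM, with the same 3 libraries lowest. NK-like cells did not show that order. At 1000 UMIs per cell, 17.8% (IgG 1), 18.8% (BP 1), 19.2% (BP 2), 15.0% (BPI), 10.8% (CD40) and 44.0% (UT) of them had an Irf1 UMI. The highest level of any class was 2093 CPM, in the neutrophil-like cells of BP 1, the one library with 20 or more of them.

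Of the 12 fitted differences of Irf1 in tumour-like and myeloid cells, 1 passed the threshold after adjustment over all genes. Monocyte/macrophage-like cells held microglia markers at a sum of 1344, 2696 and 1897 CPM in IgG 1, IgG 2 and CD40 and at 402, 911, 585 and 689 in BP 1, BP 2, BPI and UT, and endothelial markers at 77.6, 45.2 and 74.8 against 580, 129.6, 160 and 184, so both split the libraries as Irf1 does. All 7 microglia markers had UMIs except 2 in IgG 1 and 1 in BP 2, and the part of these markers in the Irf1 differences was not tested. In monocyte/macrophage-like cells UT was higher than IgG by 3.91 ± 0.59 (log2, SE; edgeR quasi-likelihood test, adjusted p 0.0489), where 0.273% of genes were called. That call was lost without IgG 2 (3.62, adjusted p 0.10), with RLE scaling (0.0617) and in cells of at least 2000 UMIs (0.0514). BP (2.87 ± 0.51, adjusted p 0.246) and BPI (3.38 ± 0.57, adjusted p 0.0925) were not called in those cells, where 0% of genes were; BP was called without IgG 1 (3.19, 0.017) and without BP 2 (3.31, 0.000379), and BPI without IgG 1 (3.70, 0.00712), BP 1 (3.26, 0.0229) or BP 2 (3.40, 0.000586). With UT counted as a control the differences were 0.35 (BP) and 0.86 (BPI). CD40 differed by 0.17 ± 0.59 (adjusted p 1.0). In microglia-like cells the differences were 1.69 ± 0.31 (BP), 1.94 ± 0.36 (BPI), 0.12 ± 0.36 (CD40) and 2.03 ± 0.35 (UT), with unadjusted p 0.00134, 0.00141, 0.755 and 0.00137 and adjusted p of 0.546 or more. Alternatives called it there for BP in 2 of 12 (no filter on low counts, without BP 2; lowest adjusted p 0.00124) and for BPI in 3 of 11 (0.00207) and UT in 3 of 10 (0.00314), each with no filter, without BP 1 and without BP 2. In tumour-like cells they were 2.12 ± 0.68, 1.52 ± 0.77, -0.18 ± 0.80 and 3.08 ± 0.77 (unadjusted p 0.0268, 0.105, 0.835 and 0.0113; adjusted p 0.371 or more), of which UT was called by DESeq2 alone (adjusted p 0.00572), among 4.10% of all genes. The tumour-like BP value rests on BP 1, and without it the difference was 0.81. Within set A, tumour-like Irf1 was 21.1 in IgG 1, 34.1 in BP 2 and 51.9 in BPI, and monocyte/macrophage-like Irf1 43.8, 147 and 263, each 1 library. Within set B, CD40 (20.2 and 40.6) lay beside IgG 2 (20.5 and 29.6), while BP 1 and UT have no IgG library in a set of their own, so set and group cannot be told apart for them.

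Tumour-like cells of 1 library were not uniform in Irf1. Across tumour-like clusters the level ran from 4.86 (41 cells) to 28.9 CPM (43 cells) in IgG 1 and from 25.1 (36 cells) to 462 (30 cells) in BPI. It ran from 40.6 (29 cells) to 219 (127 cells) in BP 1 and from 74.8 (1497 cells) to 313 (1025 cells) in UT. Within the 1 cluster with 20 or more cells of every library but UT, it was 28.9, 23.1, 40.6, 17.4, 25.1 and 23.5, from 43, 1465, 29, 43, 36 and 1448 cells. Most tumour-like cells of IgG 1, BP 2 and BPI lay in 2 other clusters, with 1577 to 2438 cells per library in each. Irf1 was at 16.5, 30.7 and 50.1 CPM in 1 of these and at 26.0, 35.5 and 48.9 in the other, in that order of libraries. Most tumour-like cells of BP 1 and UT lay in clusters that held few cells of other libraries, so cluster and library cannot be told apart there. At 1000 UMIs per cell, 2.19%, 1.79%, 14.9%, 3.37%, 5.14%, 2.00% and 14.3% of tumour-like cells had an Irf1 UMI, and 3.85%, 6.06%, 30.8%, 16.9%, 22.9%, 8.77% and 36.3% of monocyte/macrophage-like cells. IgG 1, IgG 2 and CD40 were thus lowest at matched depth too. Droplets of 1 to 100 UMIs had 18.0, 29.0, 214, 39.6, 64.3, 31.7 and 211 CPM of Irf1, above the tumour-like values in every library but IgG 1. The same droplets of BP 1 held 33.6 CPM of Ifng where tumour-like cells held 0.654, and the part of free RNA in these levels was not tested. Monocyte/macrophage markers summed to 103 and 99.7 CPM in the tumour-like cells of BP 1 and UT and 7.79 to 46.3 in the other 5, with all 10 detected in 6 libraries and 9 in CD40, against 12808 or more in that class. Their part in the result was not tested.

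Stat2 and Irf9, which act together in the type I complex, were also low in IgG 2 and CD40 and high in BP 1 and UT. Stat2 was at 11.4, 8.90, 83.5, 17.1, 24.8, 7.02 and 88.5 CPM in tumour-like cells. Monocyte/macrophage-like cells had 86, 23.7, 168, 81.6, 133, 19.1 and 181, and microglia-like cells 40.1, 11.7, 157, 45.5, 85.5, 12.1 and 133. IgG 1 lay above BP 2 in monocyte/macrophage-like cells, so the IgG and BP ranges overlap there. Endothelial-like Stat2 was 22.7 (IgG 2), 103 (BP 1), 128.7 (BPI), 22.1 (CD40) and 128.1 (UT), with the same split by cluster. Within the 2 clusters shared with UT it was 87.6 in UT against 19.5 (IgG 2) and 14.4 (CD40), and 71.8 against 46.4 and 43.6, from the same few cells of UT. For Irf9 tumour-like cells had 8.53, 8.26, 37.9, 12.3, 16, 7.67 and 51.0, monocyte/macrophage-like cells 54.0, 28.2, 71.2, 51.1, 51.7, 25.3 and 68.7, and microglia-like cells 33.6, 21.1, 43.3, 49.5, 37.3, 25.4 and 75.9. IgG 1 was thus at the level of BP 2 and BPI in monocyte/macrophage-like cells for Irf9, and above IgG 2 in both myeloid classes for both genes. Droplets of few UMIs held 7.12, 10.6, 82.4, 15.3, 25.1, 6.56 and 72.7 CPM of Stat2, above the tumour-like values in IgG 2 and BPI and below them elsewhere. They held 10.5, 10.9, 47.8, 12.4, 23.7, 8.97 and 51.4 of Irf9, above the tumour-like values in all 7 libraries. The part of free RNA in the tumour-like levels was not tested.

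**Figure D4:**
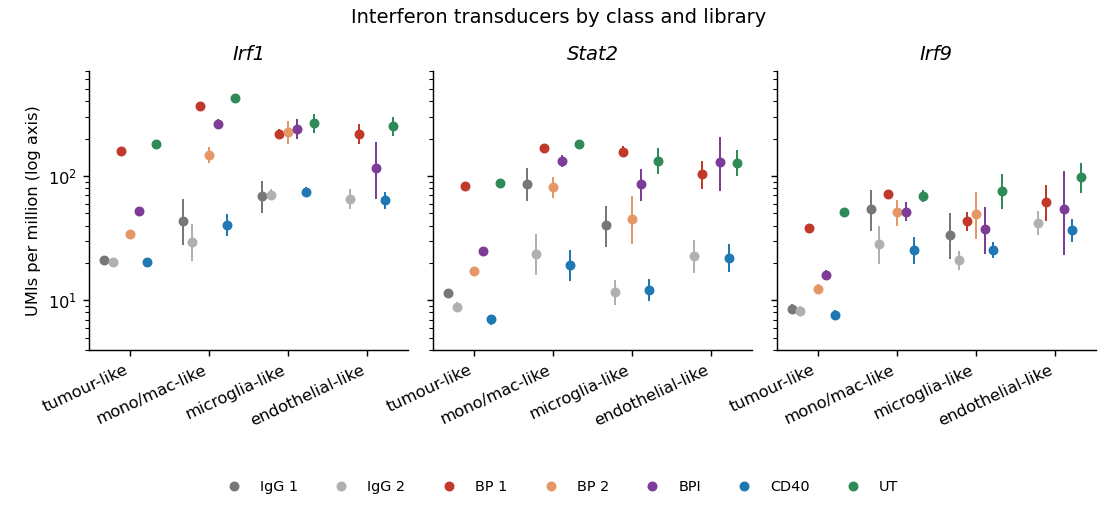
Levels of Irf1, Stat2 and Irf9 (CPM, log axis) in 4 classes, 1 point per library with at least 20 cells; bars are exact 95% Poisson intervals. IgG 1, IgG 2 and CD40 lie lowest for Irf1 in every class where they are shown, while IgG 1 overlaps BP 2 for Stat2 and Irf9 in monocyte/macrophage-like cells.

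Neither gene was called in any comparison of the main analysis. The alternatives that follow also called other genes, at shares given under how the results depend on the processing. Stat2 was called in some alternatives: for UT in monocyte/macrophage-like cells in 3 of 10 (lowest adjusted p 0.0011), among them without IgG 1 and without BP 1, and for BP in microglia-like cells in 2 of 12 (1.36e-05), among them without BP 2. It was also called in 2 alternatives each for BP (0.0193) and BPI (0.0115) in monocyte/macrophage-like and for BPI (0.008) and UT (2.03e-05) in microglia-like cells, and by DESeq2 for UT in tumour-like cells (0.00958). Irf9 was called for UT in tumour-like cells by DESeq2 (adjusted p 0.00707) and in microglia-like cells without BP 2 (0.0386). In tumour-like cells Stat2 differed from IgG by 2.22 ± 0.72 (BP), 1.49 ± 0.82 (BPI), -0.67 ± 0.88 (CD40) and 3.07 ± 0.82 (UT), and Irf9 by 1.51 ± 0.52, 1.14 ± 0.61, -0.26 ± 0.64 and 2.56 ± 0.59 (log2, SE; edgeR quasi-likelihood test, adjusted p 0.371 or more for all). In monocyte/macrophage-like cells Stat2 gave 1.3 ± 0.60, 1.84 ± 0.69, -1.47 ± 0.79 and 2.12 ± 0.69, and Irf9 0.71 ± 0.42, 0.89 ± 0.49, -0.66 ± 0.52 and 1.13 ± 0.48. In microglia-like cells Stat2 gave 2.23 ± 0.76, 2.06 ± 0.90, -0.90 ± 0.92 and 2.64 ± 0.90, and Irf9 0.83 ± 0.35, 0.67 ± 0.44, -0.03 ± 0.40 and 1.64 ± 0.40. The tumour-like BP values rest on BP 1: without it they were 0.85 (Stat2) and 0.66 (Irf9). In microglia-like cells Stat2 was at 157 CPM in BP 1 and 45.5 in BP 2, beside 40.1 in IgG 1. Alternatives of that BP difference ran from 0.81 to 3.16. The part of the lower microglia and higher monocyte/macrophage markers of BP 1 in the microglia-like Stat2 and Irf9 values was not tested. BP, BPI and UT values were above 0 and CD40 values below it, with the same IgG libraries in each comparison. Without IgG 1 the CD40 values of microglia-like cells were 0.0215 (Stat2) and 0.24 (Irf9), and with UT as a control the BPI values of tumour-like cells were -0.31 and -0.26. Between classes, all 3 transducers were higher in monocyte/macrophage-like than in tumour-like cells of the same library, by 1.18 ± 0.62 (Irf1), 1.35 ± 0.61 (Stat2) and 1.1 ± 0.46 (Irf9), and in microglia-like cells by 1.38 ± 0.72, 0.81 ± 0.46 and 0.85 ± 0.43 (SD, n = 7; 7 of 7 libraries, exact permutation p 0.0156, adjusted 0.0312 each). Endothelial-like cells were higher in 5 of 5 libraries by 0.90 ± 0.43, 0.89 ± 0.67 and 1.12 ± 0.40 (exact permutation p 0.0625 each). In T-like cells Irf9 was higher by 1.25 ± 0.53 in 7 of 7 libraries (adjusted 0.0312 by exact permutation), while Irf1 (1.3 ± 0.80, 6 of 7) and Stat2 (0.32 ± 0.62, 5 of 7) missed the threshold.

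**Figure D5:**
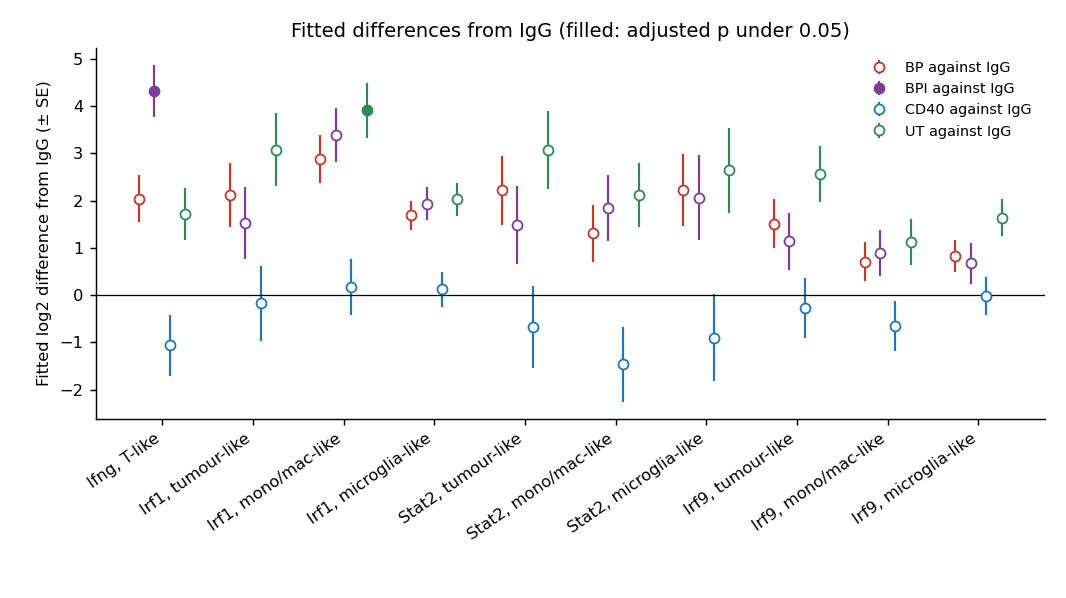
Fitted log2 differences from IgG (vertical axis, points with SE bars) for Ifng in T-like cells and for Irf1, Stat2 and Irf9 in 3 classes, coloured by comparison; filled points have an adjusted p under 0.05. Filled are Ifng in BPI (4.32) and Irf1 of monocyte/macrophage-like cells in UT (3.91), and CD40 points lie near or below 0.

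Counted over the 16 combinations of class and comparison, those 2 were the calls among the 9 genes. At an unadjusted p under 0.05 and higher than IgG, tumour-like cells had 3 of 9 members in BP (1.83% of all genes), 1 of 9 in BPI (0.759%), 0 in CD40 (0.0298%) and 6 of 9 in UT (6.44%). Monocyte/macrophage-like cells had 1, 2, 0 and 3 of 7 tested members, against 4.77%, 7.87%, 0.505% and 7.35% of all genes. Microglia-like cells had 2, 1, 0 and 3 of 8 (2.43%, 1.78%, 0.146% and 4.31%), and T-like cells 2, 3, 0 and 3 of 8 (4.97%, 4.10%, 2.17% and 7.43%). No member was lower at that p, in the same order of comparisons against 0.243%, 0.228%, 0.0397% and 6.14% of all genes in tumour-like, 3.31%, 3.13%, 0.404% and 4.53% in monocyte/macrophage-like, 2.21%, 1.51%, 0.195% and 3.91% in microglia-like and 2%, 1.77%, 1.01% and 5.65% in T-like cells. Beside the genes above, the 6 of UT tumour-like cells were Ifnb1, Ifngr2 (1.13 ± 0.25, p 0.00648) and Ifnar2 (1.47 ± 0.44, p 0.0218), and the 1 of BPI was Ifng (4.71 ± 1.66, p 0.0382), at 0.788 CPM against 51.7 in the droplets of few UMIs. In T-like cells they included Stat2 in BP (1.51 ± 0.67, p 0.0296), BPI (1.60 ± 0.73, p 0.0336) and UT (1.89 ± 0.72, p 0.0111), and Irf1 in BPI (1.02 ± 0.50, p 0.0486) and UT (1.42 ± 0.50, p 0.0063), all uncalled after adjustment by edgeR.

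Set side by side, the libraries with more Ifng were those with more Irf1. Over all kept cells Ifng was at 0.331, 0.301, 24.9, 5.73, 56.1, 0.495 and 8.98 CPM, so that IgG 1, IgG 2 and CD40 formed 1 cluster of values and the other 4 another. No correlation across libraries is given, because each cluster has fewer than 6 libraries. Within the second cluster the order differed: BPI had the most Ifng, and BP 1 and UT the most Irf1 in tumour-like cells (158 and 181 against 51.9).

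The surrounding pathway was counted from lists of known genes, chosen with earlier results of these data known. Of 14 interferon gamma targets, in tumour-like cells 12 were higher at unadjusted p under 0.05 in BP (median log2 difference 3.08, against 0.00 for all genes), 8 in BPI (2.20), 0 in CD40 (-0.39) and 12 in UT (3.93), none of them called, where 1.83%, 0.759%, 0.0298% and 6.44% of all genes were higher at that p. In monocyte/macrophage-like cells 12, 14, 0 and 13 of 14 were (medians 2.48, 3.50, -0.24 and 3.58; all genes 4.77%, 7.87%, 0.505% and 7.35%), of which 3 in UT were called: Gbp4 (5.52 ± 0.72, adjusted p 0.0408), Gbp5 (4.15 ± 0.61, adjusted p 0.0489) and Gbp3 (3.65 ± 0.55, adjusted p 0.0489), guanylate-binding proteins of cell-autonomous defence. Gbp5 was at 16.9, 5.93, 190, 163, 413, 10.9 and 145 CPM in these cells, with BPI highest. The microglia and endothelial markers of these cells split the libraries as described for Irf1. Their part in the list counts of this class was not tested. Microglia-like cells had 12, 13, 0 and 12 of 14 (medians 2.82, 3.40, -0.26 and 3.54; all genes 2.43%, 1.78%, 0.146% and 4.31%), and T-like cells 3, 4, 0 and 7 of 12 (medians 0.68, 0.90, -0.08 and 1.24; all genes 4.97%, 4.10%, 2.17% and 7.43%).

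Of 13 type I targets listed, 11 were in the tables. In tumour-like cells 7 of 11 were higher at that p in BP, 7 in BPI, 0 in CD40 and 11 in UT (medians 2.45, 2.60, -2.39 and 4.35), against the same shares of all genes as above. Microglia-like cells had 3, 6, 0 and 10 (medians 0.67, 1.89, -1.85 and 2.94). T-like cells had 0, 1, 0 and 2 (medians -0.19, 0.05, -1.68 and 0.81), with 1 lower in BP. Monocyte/macrophage-like cells had 0, 5, 0 and 8 (medians 0.77, 2.15, -3.38 and 2.27), and in CD40 9 of the 11 were lower at that p, as were 0.404% of all genes. Isg15, a ubiquitin-like product of type I signalling, was at 1359, 209, 472, 1891, 2696, 55.7 and 2791 CPM there, so that the IgG libraries themselves differed more than IgG 1 and BP 2. CD40 was also the library with 4 of 11 lower in microglia-like (0.195% of all genes) and 7 of 11 in T-like cells (1.01%), none of them called, and it lay with IgG 2 in set B.

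Among 8 brakes on the pathway 3, 4, 0 and 4 were higher at unadjusted p under 0.05 in monocyte/macrophage-like cells (all genes 4.77%, 7.87%, 0.505% and 7.35%), 2, 0, 0 and 2 in tumour-like, 2, 1, 0 and 2 in microglia-like and 0, 1, 0 and 1 in T-like cells, with 1 lower in CD40 T-like cells. In monocyte/macrophage-like cells Socs1, which binds and blocks JAK kinases, was the leading brake in UT (4.69 ± 0.78, edgeR adjusted p 0.0563), at 21.9, 8.15, 275, 71.0, 111, 4.78 and 282 CPM. Of the genes that raise Ifng, Il12rb2, the signalling chain of the interleukin 12 receptor, was at 66.1, 44.5, 172, 204, 337, 37.3 and 134 CPM in T-like cells and was called in BPI (2.72 ± 0.53, adjusted p 0.00633). CD8 T-like cells were 372 of the 594 T-like cells in BPI and 6 of 37 and 3 of 59 in IgG, and monocyte/macrophage markers in T-like cells were highest in BPI. The part of both in the Il12rb2 difference was not tested. In monocyte/macrophage-like cells 5, 7, 0 and 5 of the 9 tested genes that raise Ifng were higher at that p (4.77%, 7.87%, 0.505% and 7.35% of all genes). Tumour-like cells had 2, 1, 0 and 1 of 11, microglia-like cells 1, 2 and 0 of 8 and 1 of 6, with 1 lower in BP and in UT, and T-like cells 2, 3 and 2 of 8 and 3 of 9, with 1 lower in UT. All genes were higher at that p at 1.83%, 0.759%, 0.0298% and 6.44% in tumour-like, 2.43%, 1.78%, 0.146% and 4.31% in microglia-like and 4.97%, 4.10%, 2.17% and 7.43% in T-like cells, for the brakes too. In monocyte/macrophage-like cells Il15ra, which presents interleukin 15 to lymphocytes, was called in UT (4.13 ± 0.59, adjusted p 0.0489), from 8.43 and 2.96 CPM in IgG to 68.0.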

How the data were processed

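Per the labels' protocols, whole tumours were dissociated and made into 10x 3′ libraries with V2 chemistry, aiming for 6000 cells each. The labels give that chemistry for all libraries, but UT listed 713553 barcodes and the other libraries 1487060 to 2310016. UT shared 0 to 3 cell barcodes with any other library. In comparisons with IgG, the UT group and its barcode list cannot be told apart. The deposited files hold UMI counts per gene and barcode, not limited to cells; the file headers name Cell Ranger 4, the submitters' processing notes Cell Ranger 7.0.1 and mm10. Cells were droplets of 1000 UMIs and 500 genes or more with 15% mitochondrial UMIs or less, and the highest Scrublet scores (0.8% per 1000 cells; scanpy 1.11.5) were removed as doublets. Leiden clusters (2000 variable genes, 30 components, 15 neighbours, resolution 1, no batch correction, members and pathway lists left out of the variable genes) were named from marker lists, and T and NK cells were clustered again. Summed counts were tested with edgeR 4.0.16 (R 4.3.3; quasi-likelihood, TMM, filterByExpr, Benjamini-Hochberg over all genes of a class and comparison). UT was fitted together with all others (7 libraries), and the other comparisons without it (6). Groups of 1 library borrow the spread of the IgG and BP pairs. Classes of a library were compared by exact sign-flip tests on log2(CPM + 10), where at least 20 cells were present (python 3.11.15, scipy 1.17.1, numpy 2.4.6, pandas 2.3.3, matplotlib 3.10.9). The tests were checked on simulated data.

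Intervals are exact 95% Poisson intervals, and these and the floor of 3 counts cover counting error only. P-values measure the spread between pooled libraries. Genes named are the 9 members with their levels, fitted differences for Ifng in T-like cells, for the 3 transducers in tumour and myeloid classes and for other members at unadjusted p under 0.05, and up to 4 genes of smallest p per pathway list; other values were chosen after they were seen. The members, lists, tests and alternatives were chosen with earlier results of these data known. DESeq2 1.42.0, RLE scaling, other filters, left-out libraries, replicate blocks and UT counted as a control were tried. Results of 1 gene, and the list that holds it, are not reported here.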

Additional observations from a re-analysis of the deposited data

Results flagged for a closer look

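Ligand and transducer values outside the named cells were compared with the same values in IgG. Those below had a lower 95% limit above the upper 95% limit of both IgG libraries. Receptor values beyond such limits, among them Ifngr1 in the droplets of BP 1 (85.1 CPM) and Ifngr2 in unnamed cells of UT (101 CPM), are not listed. In droplets of 1 to 100 UMIs, Ifng was at 33.6 CPM in BP 1, 8.95 in BP 2, 51.7 in BPI and 32.1 in UT, against 0.419 and 0.358 in IgG. Ifnb1 was at 9.28 CPM in the UT droplets, above the 3.80 of UT tumour-like cells and 0 in both IgG libraries. Irf1 in these droplets was at 214 (BP 1), 64.3 (BPI) and 211 CPM (UT), Stat2 at 82.4, 25.1 and 72.7, and Irf9 at 47.8, 23.7 and 51.4. In cells of clusters without a name, Irf1 was at 209 (BP 1) and 130 CPM (UT), Stat2 at 94.4 and 41.6, and Irf9 at 31.4 and 34.2. The other libraries had Irf1 there at 14.3 (IgG 1), 102 (IgG 2), 26.7 (BP 2), 38.7 (BPI) and 83.9 CPM (CD40). IgG 2 and CD40 thus lay above BP 2 and BPI, unlike in tumour-like cells. An unnamed cluster raised 11 of the 12 tumour markers. It held Irf1 at 145 (IgG 2, 163 cells), 236 (BP 1, 388 cells), 127 (CD40, 226 cells) and 274 CPM (UT, 46 cells). No group had the 4 libraries that a search for outlying samples needs.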

How the results depend on the processing

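Each count of called members is by edgeR over the class named, with 0 in the main analysis except 1 for BPI in T-like and 1 for UT in monocyte/macrophage-like cells. DESeq2 gave 1 for BP and 1 for BPI in monocyte/macrophage-like cells, 1 for BP in T-like and 4 for UT in tumour-like cells, where it called 0.918%, 1.58%, 0.156% and 4.10% of all genes. RLE scaling and cells of at least 2000 UMIs each gave 0 for UT in monocyte/macrophage-like cells, and the latter 1 for BP in T-like cells (1.07% of all genes). Without the filter on low counts BP had 1, 2 and 1 (monocyte/macrophage-like, microglia-like, T-like), BPI 2 and 2 (monocyte/macrophage-like, microglia-like) and UT 2, 2 and 1, against 1.99%, 1.39% and 0.587%, 2.79% and 0.594%, and 2.95%, 1.43% and 1.1% of all genes. Leaving out 1 IgG or BP library gave 0 to 2 for BP, BPI and UT in monocyte/macrophage-like cells, 0 to 2 (BP and BPI) and 0 to 3 (UT) in microglia-like cells, and 0 to 1 (BP) and 0 to 2 (UT) in T-like cells, while all genes called ranged to 5.36%, 5.84% and 7.55%, to 6.66%, 1.2% and 2.85%, and to 2.69% and 3.52%. The replicate numbers are not known to pair libraries, and BP and IgG deviations by number correlated at -0.65 (tumour-like), -0.19 (monocyte/macrophage-like), 0.01 (microglia-like) and -0.06 (T-like). With the replicate block BP and UT each had 1 in T-like cells (0.690% and 1.11% of all genes); the crossed block, added after seeing the data, gave BP 2 in monocyte/macrophage-like and 1 in T-like cells (5.5% and 0.947%). Also added later, T-like cells without the top Ifng cell gave 1 for BP (0.612%). UT counted as a control gave 0 for BPI in T-like cells. The cause of these moves was not tested.

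Differences changed sign with UT as a control for BPI Stat2 (-0.31), Irf1 (-0.28) and Irf9 (-0.26) in tumour-like cells, BPI Irf9 in microglia-like cells (-0.0225), and CD40 Irf1 in monocyte/macrophage-like (-2.36) and microglia-like cells (-0.87). Leaving out 1 library gave CD40 -1.67 to 0.0215 for Stat2 and -0.35 to 0.24 for Irf9 of microglia-like cells, and -0.14 to 0.48 for Irf1 of monocyte/macrophage-like cells, the signs changing without IgG 1 for the first pair and without IgG 2 for the third. CD40 Irf9 of microglia-like cells was 0.0125 without the filter, and CD40 Irf1 of monocyte/macrophage-like cells -0.25 with the replicate block. Of the fitted alternatives of single differences, 480 kept direction and side of the threshold, 48 passed it and 4 fell short. The CD8 share of Ifng UMIs moved to 66.4% (BP 2), 90.1% (BPI) and 32.0% (UT) by own UMIs, and from 12.0% to 4.0% (IgG 1) and 9.76% to 22.0% (IgG 2) within their counting intervals, to 51.9% (BP 1) with doublets and to 94.8% (BPI) at 2000 UMIs. The correlation of Ifng with transducers across libraries and its alternatives were not run, since the libraries form 2 clusters. The number of cells limits the IgG lymphocytes, with 37 and 59 T-like cells.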

Other observations

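Other classes held Irf1 at different levels in the few libraries where they could be measured. Dendritic-like cells had 444 (BP 1) and 707 CPM (UT), B-like cells 424 (BP 1), 26.6 (CD40) and 601 (UT), and fibroblast-like cells 209 (BP 1) and 60.4 (CD40). The mast or basophil-like cells of BP 1 had 715 CPM, and oligodendrocyte-like cells 2.29 (IgG 2) and 4.05 (CD40), the lowest Irf1 of any class. In NK-like cells Irf9 was at 3.14 CPM in CD40 and 36.1 to 109 in the other 5 libraries with 20 or more of them. These levels rest on few counts: 1.54% of the 65 NK-like cells of CD40 and 6.67% of the 45 of IgG 1 had an Irf9 UMI.

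Over 55 sums of 1 library and class, and among 10003 genes with a mean of at least 10 CPM, the genes whose log2(CPM + 10) was most like Ifng were Klrc1 (Pearson r 0.953), Sh2d1a (0.948) and Klrc2 (0.948). Those most like Irf1 were Parp9 (0.909), Dtx3l (0.886) and Tapbp (0.886), those most like Stat2 were Parp11 (0.861), Irf7 (0.857) and Oasl2 (0.841), and those most like Irf9 included Trim30a (0.874) and Parp9 (0.850). Sums of 1 library share its depth and preparation, and these values are a description.

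Irf7, Zbp1 and Usp18 had the smallest p of their lists in UT tumour-like cells and were not called. Irf7, a factor that amplifies type I interferon, was at 23.2, 9.25, 164, 35.6, 96.7, 3.51 and 690 CPM in tumour-like cells (UT against IgG 5.34 ± 1.01, log2, SE; edgeR adjusted p 0.371). Zbp1, a sensor of nucleic acids, was at 31.4, 14.3, 235, 65.5, 175, 11 and 602 CPM. Usp18, which binds IFNAR2 and damps its signal, was at 11.9, 4.69, 96.3, 16.9, 37.6, 3.26 and 338 CPM (5.28 ± 1.09, adjusted p 0.371). In T-like cells of UT, Irf8 (2.55 ± 0.56, adjusted p 0.00423), Oas1a (3.78 ± 0.86, adjusted p 0.0055), Rtp4 (2.04 ± 0.57, adjusted p 0.0374) and Iigp1 (1.80 ± 0.52, adjusted p 0.0442) were called higher than in IgG by edgeR.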
